A study of Homo sapiens with 20 samples.

Results

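The 9 genes described here mark epithelial or mesenchymal character or drive the passage between them. They are the cadherins CDH1 and CDH2, the epithelial adhesion protein EPCAM, the filament protein VIM, and the transcription factors SNAI1, SNAI2, ZEB1, ZEB2 and TWIST1. They were picked by name from the 50775 features of the count files. All 9 were listed there, and 8 passed the filter on low counts that left 16698 genes for testing; the other was CDH1. RNA was sequenced from 5 established human cancer lines in 10 groups of 2 libraries, 20 in all. The lines were 94T778 (well differentiated liposarcoma), A375 and SKMEL28 (melanoma), and SKBR3 and AU565 (breast cancer). In each line, cells given torkinib for 72 h were set against untreated cells, for which no time is given. Torkinib, also called PP242, is an ATP-competitive inhibitor of the kinase MTOR, which controls growth and translation. SKBR3 cells received 0.8 µM, 94T778 cells 10 µM, and AU565, SKMEL28 and A375 cells 4 µM each, concentrations that the submitters picked to halt cycling but spare viability. Differences of response between lines are therefore also differences of dose, except among A375, SKMEL28 and AU565, and culture media differed between lines. SKBR3 and AU565 are known to stem from the same donor. Whether the 2 libraries of a group stem from separate cultures is not stated, and p-values thus reflect the spread between libraries alone, which may be technical. The series asks how MTOR inhibition changes DNA repair genes, and the genes below lie outside that question.

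In an epithelial to mesenchymal transition, cells give up the E-cadherin junctions encoded by CDH1 and take on N-cadherin, encoded by CDH2, together with vimentin filaments. Factors of the SNAI and ZEB families bind E-boxes, short DNA motifs, in CDH1 and other epithelial genes and repress them, and TWIST1 acts in the same programme. Melanoma and sarcoma cells are not epithelial. In melanoma, ZEB2 and SNAI2 are known as factors of the melanocyte lineage, and ZEB1 and TWIST1 as factors of less differentiated cells.

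Depth was 4040023 to 9737903 counted reads per library, so that 3 counts over a group, the floor used for bounds, stood for 0.172 to 0.310 CPM (counts scaled to a common library total). Lineage markers followed the labels. The summed CPM of 8 melanocyte genes was 8256 to 8652 in untreated SKMEL28, 686 to 750.5 in untreated A375 and 9.04 to 41.0 in the other untreated lines. The sum of 10 luminal and HER2 breast genes was 18254 to 24139.7 in the untreated breast lines and 104 to 734 in the others. The sum of 8 genes of the liposarcoma amplicon of 12q was 12309.6 to 12483 in untreated 94T778 and 327 to 1147 elsewhere. Over all 20 libraries, 6 fibroblast genes summed to 2.65 to 65.8 and 6 blood genes to 0 to 18.8. Of 5 endothelial genes 4 were measured, and their sums were 0.666 to 7.22 outside the breast lines.

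Some untreated libraries held transcripts typical of another line. Of 39 genes at 30 CPM or more in both untreated 94T778 libraries and at most 0.2 CPM in both torkinib A375 libraries, 39 had a count in A375 untreated replicate 1 and 24 in replicate 2. Their median level, as a percentage of that in untreated 94T778, was 2.10% in replicate 1 (Q1 to Q3, 1.34 to 3.32%) and 0.122% in replicate 2. Of 177 SKMEL28 genes chosen likewise, 146 had a count in SKBR3 untreated replicate 2, at a median of 0.382% of their SKMEL28 level. In SKBR3 untreated replicate 1 they were 102, at a median of 0.0995%. SKBR3 untreated replicate 2 also had counts for 100 of 144 A375 genes, at a median of 0.274%, and 96 of 167 94T778 genes, at 0.141%. In replicate 1 these were 75, at 0.0462%, and 83, at a median of 0%. A gene can belong to more than 1 of these sets. Of 58 A375 genes, 48 had a count in SKMEL28 untreated replicate 2, at a median of 0.348% of their A375 level, and 31 in replicate 1, at 0.118%. The untreated SKBR3 libraries also differed from each other more than those of any other group, with a chi-square of 12.2 per gene, against 1.37 to 3.37 in the other 9 groups. In SKBR3, 13 mitochondrial genes took 8.49 and 6.76% of the counts with torkinib, against 7.63 and 4.44% untreated. The part of these features in the SKBR3 results was not tested.

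**Figure D1:**
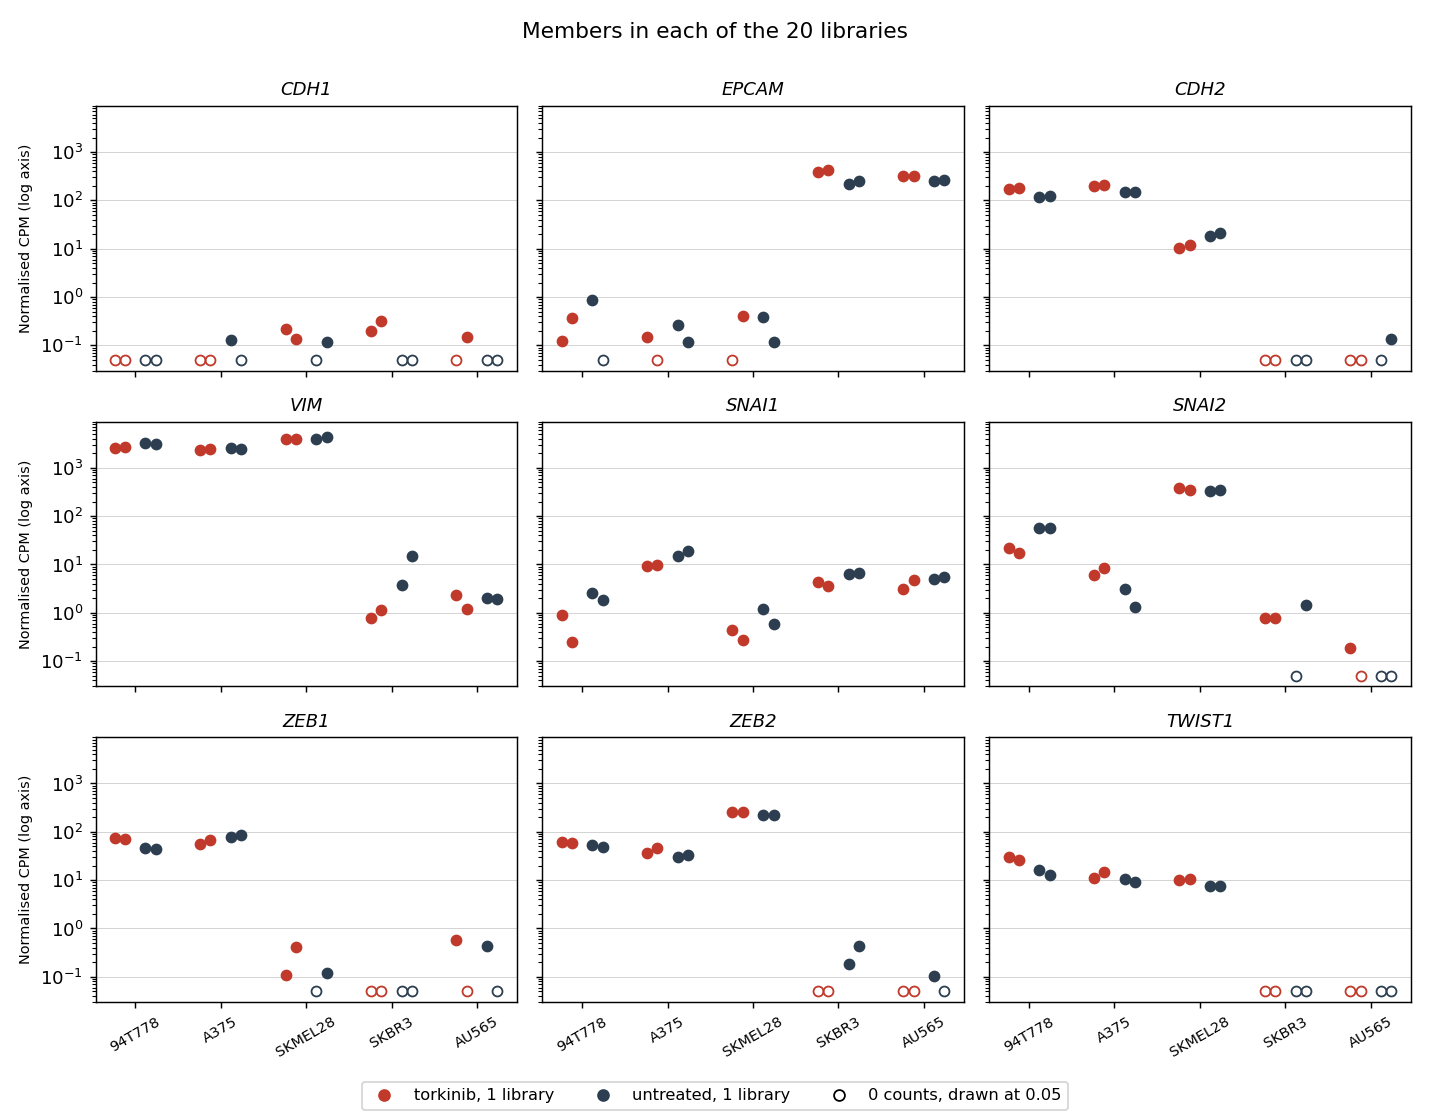
Each point is 1 library, the vertical log axis gives normalised CPM, and torkinib libraries stand left of untreated ones in each line; hollow points at the bottom are libraries with 0 counts. EPCAM was above 200 CPM in SKBR3 and AU565 alone, VIM was far higher in 94T778, A375 and SKMEL28 than in the breast lines, and ZEB1 was high in 94T778 and A375 but not in SKMEL28.

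Untreated levels differed between lines, in which tissue, donor and medium cannot be told apart. EPCAM was high in the breast lines, and CDH2, VIM, ZEB2 and TWIST1 in the melanoma and liposarcoma lines. SNAI1, SNAI2 and ZEB1 did not follow that split. All 8 tested members differed among the 5 untreated lines by edgeR's quasi-likelihood test, as did 96.3% of all tested genes. Over the 10 pairs of lines, 68 of 80 member comparisons passed the test, where 51.2 to 77.3% of all tested genes did in a pair. For all tested genes the share was 67.1, 64.4, 76.6 and 74.6% with 94T778 set against A375, SKMEL28, SKBR3 and AU565 in turn. With A375 it was 68.6% against SKMEL28, 77.3% against SKBR3 and 76.3% against AU565. With SKMEL28 it was 75.9% against SKBR3 and 75.4% against AU565, and between the breast lines 51.2%. Levels are shares of the RNA counted, and in such bulk samples fewer cells that express a gene and less of its RNA per cell cannot be told apart.

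CDH1, the defining epithelial cadherin, had 0 to 2 counts in each of the 20 libraries, the breast lines included. Summed over 2 libraries it had 3 counts with torkinib and 0 untreated in SKBR3, and 1 with torkinib and 0 untreated in AU565. SKBR3 is known to lack E-cadherin. All 10 groups stood at or under the floor of 3 counts, so no fold is given.

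EPCAM, an adhesion protein of epithelia, stood at 219.7 and 252 normalised CPM in untreated SKBR3 and at 254 and 266 in untreated AU565. These lines were not called different (SKBR3 minus AU565 -0.14 on the log2 scale, SE 0.0914, edgeR adjusted p = 0.217). Without SKBR3 untreated replicate 2 the difference was -0.24 (adjusted p = 0.0191). In each library of the other 3 lines it had at most 5 counts.

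EPCAM rose with torkinib in both breast lines. SKBR3 libraries stood at 384 and 419 with torkinib, against 219.7 and 252 untreated (log2 fold change 0.77, SE 0.0915, edgeR adjusted p = 5.24e-09). AU565 libraries stood at 317 and 325 with torkinib, against 254 and 266 untreated (0.30, SE 0.0903, adjusted p = 0.00428). The groups overlapped in neither line, as for 67.3% of all tested genes in SKBR3 and 74.4% in AU565. The rise was larger in SKBR3, at the lower dose, by 0.46 (SE 0.128, adjusted p = 0.00687), a difference called for 23.8% of all tested genes. Without SKBR3 untreated replicate 2 the SKBR3 change was 0.87, and the AU565 call was lost without AU565 untreated replicate 1 (adjusted p = 0.0562).

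CDH2, the N-cadherin of mesenchymal and neural cells, stood at 148 and 151 normalised CPM in untreated A375, 115 and 123 in 94T778 and 18.6 and 21.4 in SKMEL28. Each step of that order passed the test: 94T778 minus A375 was -0.33 on the log2 scale (SE 0.0827, edgeR adjusted p = 8.00e-04) and 94T778 minus SKMEL28 was 2.55 (adjusted p = 8.93e-21). Untreated SKBR3 had 0 and 0 counts and untreated AU565 0 and 1. Against the floor of 3 counts over the SKBR3 group, CDH2 was at least 741-fold higher in A375, at least 517-fold higher in 94T778 and at least 87.2-fold higher in SKMEL28.

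With torkinib CDH2 moved in opposite directions in the melanoma lines. A375 libraries stood at 203 and 209 with torkinib, against 148 and 151 untreated, a rise (log2 fold change 0.46, SE 0.0797, edgeR adjusted p = 1.30e-05). SKMEL28 libraries stood at 10.6 and 11.8 with torkinib, against 18.6 and 21.4 untreated, a fall (-0.86, SE 0.146, adjusted p = 8.84e-06). At the shared dose of 4 µM the response in A375 exceeded that in SKMEL28 by 1.32 (SE 0.166, adjusted p = 1.24e-07), a difference called for 28.4% of all tested genes. Without A375 untreated replicate 1 the A375 change was 0.45, and without SKMEL28 untreated replicate 2 the SKMEL28 change was -0.74. In 94T778 CDH2 rose too, at 169 and 183 with torkinib, against 115 and 123 untreated (0.57, SE 0.0820, adjusted p = 5.93e-07). The groups overlapped in none of these 3 lines, as for 69.1% of all tested genes in A375, 69.2% in SKMEL28 and 70.8% in 94T778.

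VIM encodes vimentin, the intermediate filament of mesenchymal cells. Untreated libraries held 4024 and 4288 normalised CPM in SKMEL28, 3208 and 3112 in 94T778 and 2529 and 2491 in A375. Of the breast lines, SKBR3 held 3.68 and 14.8, and AU565 held 2.02 and 1.92. The differences among the upper 3 were small but called: 94T778 minus SKMEL28 was -0.40 on the log2 scale (edgeR adjusted p = 0.00275) and 94T778 minus A375 0.33 (adjusted p = 0.0105). The second was lost when scaling by library totals (adjusted p = 0.294) and with DESeq2 (adjusted p = 0.431), which gave 0.391 for the first.

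VIM was not called with torkinib in SKMEL28 and A375, and its call in 94T778, also rich in it, depended on the fit. It averaged 3908 ± 59.1 with torkinib and 4156 ± 187 untreated in SKMEL28 (SD, n = 2 each; log2 fold change -0.09, SE 0.114, edgeR adjusted p = 0.578). It averaged 2386 ± 62.3 with torkinib and 2509.7 ± 27 untreated in A375 (-0.07, SE 0.114, adjusted p = 0.649). In 94T778 libraries stood at 2555 and 2694 with torkinib, against 3208 and 3112 untreated (-0.27, SE 0.114, adjusted p = 0.0517). These groups did not overlap, as for 70.8% of all tested genes there. The main fit shares its estimate of spread over all 10 groups, SKBR3 included, where untreated VIM counts were 20 and 101. Fitted on its own libraries, 94T778 had the same change of -0.27 (edgeR adjusted p = 1.40e-04). Several other alternatives also called it (limma-voom adjusted p = 6.52e-04), but DESeq2 and scaling by library totals did not.

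In SKBR3, at a far lower level, VIM stood at 0.795 and 1.12 with torkinib, against 3.68 and 14.8 untreated, a fall (log2 fold change -3.30, SE 0.459, edgeR adjusted p = 1.27e-07). These groups did not overlap, as for 67.3% of all tested genes in SKBR3. In AU565 VIM stood at 2.28 and 1.17 with torkinib, against 2.02 and 1.92 untreated (-0.25, SE 0.538, adjusted p = 0.748). The untreated SKBR3 counts were 20 and 101, so 1 library held most of them. As a percentage of untreated SKMEL28, VIM was at 0.0830% in untreated replicate 1 and 0.341% in replicate 2, where the 177 SKMEL28 genes had medians of 0.0995% and 0.382%. The 8 melanocyte genes summed to 9.21 and 11.2 CPM with torkinib and 12 and 41.0 untreated, and 6 of 8 were called lower, or 1 without SKBR3 untreated replicate 2, A375 untreated replicate 1 and SKMEL28 untreated replicate 2. Without replicate 2 the VIM change was -1.90 (adjusted p = 9.06e-04). The untreated difference SKBR3 minus AU565 was 2.29 (adjusted p = 8.29e-07), and 0.89 without that library (adjusted p = 0.0659). The part of transcripts of SKMEL28 or of the other lines rich in VIM in this result was not tested.

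**Figure D2:**
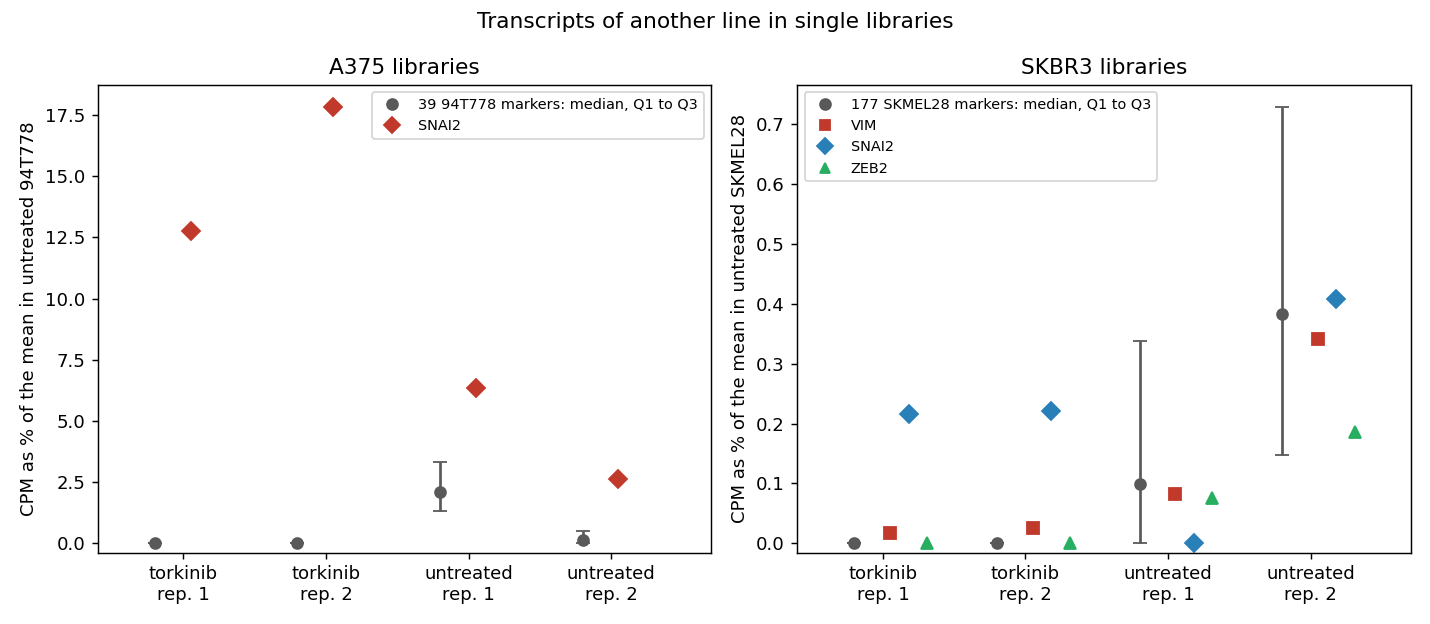
Each panel shows the 4 libraries of 1 line, and the vertical axis gives CPM as a percentage of the level in untreated 94T778 (A375 libraries) or untreated SKMEL28 (SKBR3 libraries), with the median of that line's marker genes drawn from Q1 to Q3. The marker genes were chosen to be near 0 in the torkinib libraries, so that these cannot be compared with them. In the untreated libraries VIM in SKBR3 lies close to the marker median, and SNAI2 in A375 lies above it.

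SNAI1 encodes Snail, a repressor of CDH1, and was the one factor of the 5 with more than a few counts in both breast lines. Untreated libraries held 15 and 18.6 normalised CPM in A375, 6.44 and 6.60 in SKBR3 and 5.0 and 5.49 in AU565. They held 2.56 and 1.85 in 94T778 and 1.17 and 0.597 in SKMEL28. SKBR3 and AU565 were not called different (log2 difference 0.32, SE 0.250, edgeR adjusted p = 0.304), whereas A375 was above SKBR3 by 1.37 (adjusted p = 2.01e-07) and 94T778 above SKMEL28 by 1.41 (adjusted p = 0.0150). Without SKMEL28 untreated replicate 2 the difference of 94T778 from SKMEL28 was 0.90 (adjusted p = 0.234).

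SNAI1 fell with torkinib in 3 lines, and in all 5 its torkinib libraries lay below its untreated ones. Groups did not overlap for 67.3 to 74.4% of all tested genes in a line. A375 libraries stood at 9.45 and 9.91 with torkinib, against 15 and 18.6 untreated (log2 fold change -0.81, SE 0.192, edgeR adjusted p = 7.73e-04). 94T778 libraries stood at 0.885 and 0.252 with torkinib, against 2.56 and 1.85 untreated (-1.92, SE 0.528, adjusted p = 0.00262), on 9 against 26 counts. SKBR3 libraries stood at 4.37 and 3.51 with torkinib, against 6.44 and 6.60 untreated (-0.74, SE 0.289, adjusted p = 0.0307). The changes in SKMEL28 (-1.13, SE 0.711, adjusted p = 0.209) and AU565 (-0.37, SE 0.279, adjusted p = 0.280) did not pass the test. That in SKMEL28 rested on 6 counts with torkinib and 11 untreated. With 1 library left out, the 94T778 change ranged from -3.04 to -1.30, and without torkinib replicate 2 its call was lost (adjusted p = 0.0693). The A375 change was -0.95 without untreated replicate 1. The SKBR3 change was -0.72 without untreated replicate 2, where its call was lost (adjusted p = 0.0962). That call was also lost without untreated replicate 1 (adjusted p = 0.0531), without torkinib replicate 2 (0.208), with limma-voom (0.0608) and with DESeq2 (0.0985). No difference of the SNAI1 response between lines was called (adjusted p = 0.203).

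SNAI2 encodes Slug, a relative of Snail active in neural crest and melanocytes. Untreated libraries held 336 and 354 normalised CPM in SKMEL28, 57.2 and 56.3 in 94T778 and 3.17 and 1.31 in A375. SKBR3 had 0 and 10 counts and AU565 0 and 0. On the log2 scale 94T778 minus SKMEL28 was -2.60 and 94T778 minus A375 was 4.68 (edgeR adjusted p = 3.26e-21 and 4.56e-20). Without A375 untreated replicate 1 the second was 5.42. All untreated SKBR3 counts were in replicate 2, at 0.408% of the SKMEL28 level, near the 0.382% median of the SKMEL28 genes there. The call of SKBR3 above AU565 (adjusted p = 0.00381) was lost without that library, when both groups are at 0 counts.

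Torkinib moved SNAI2 in opposite directions in 94T778 and A375. 94T778 libraries stood at 21.7 and 17.1 with torkinib, against 57.2 and 56.3 untreated, a fall (log2 fold change -1.55, SE 0.145, edgeR adjusted p = 4.14e-11). A375 libraries stood at 6.09 and 8.43 with torkinib, against 3.17 and 1.31 untreated, a rise (1.68, SE 0.343, adjusted p = 1.21e-04). The groups overlapped in neither, as for 70.8% of all tested genes in 94T778 and 69.1% in A375. In SKMEL28, where SNAI2 was highest, libraries stood at 376 and 354 with torkinib, against 336 and 354 untreated (0.08, SE 0.0947, adjusted p = 0.536), and these groups overlapped. SKBR3 libraries stood at 0.795 and 0.798 with torkinib, against 0 and 1.47 untreated (adjusted p = 1). At the shared dose the response in A375 exceeded that in SKMEL28 by 1.60 (SE 0.357, adjusted p = 6.33e-04).

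The single A375 libraries bear on that rise. SNAI2 was at 12.7 and 17.8% of its untreated 94T778 level in the torkinib libraries, against 6.36% in untreated replicate 1 and 2.65% in replicate 2. The 39 94T778 genes, near 0 in the torkinib libraries by the way they were chosen, had medians of 2.10% and 0.122% in the untreated libraries. The rise was 2.42 without untreated replicate 1 (adjusted p = 2.86e-05) and 1.16 without untreated replicate 2, the ends of its range with 1 library left out.

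The ZEB genes parted the melanoma lines. ZEB1, a zinc finger repressor of CDH1, stood at 78.2 and 84.0 normalised CPM in untreated A375 and 47.2 and 44.2 in 94T778, and 94T778 minus A375 was -0.83 on the log2 scale (SE 0.117, edgeR adjusted p = 1.25e-07). It had 0 and 1 counts in untreated SKMEL28, 0 and 0 in SKBR3 and 4 and 0 in AU565. Against the SKBR3 floor ZEB1 was at least 403-fold higher in A375. ZEB2, its paralogue, was highest in the melanoma line that lacked ZEB1, at 225 and 227 in SKMEL28, 53.8 and 47.6 in 94T778 and 29.4 and 32.5 in A375. On the log2 scale 94T778 minus SKMEL28 was -2.15 and 94T778 minus A375 0.71 (adjusted p = 8.70e-21 and 8.74e-07). Without a stated strand, reads of ZEB2 and its antisense gene ZEB2-AS1, which had 0 to 9 counts per library, cannot be told apart.

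ZEB and SNAI factors are known to bind the letters CAGGTG, which read CACCTG on the other strand. RefSeq promoter windows (GRCh38.p14) matched 4 of the 9 members, and the 250 bases before each start were searched for these letters on both strands. They stood in 2 of 7 windows of ZEB1 and in none of the 1 of ZEB2, the 1 of VIM and the 2 of CDH2, against 17.5% of all 35116 windows. Both ZEB1 windows and the ZEB2 window are shown because these genes parted the melanoma lines, 5′ to 3′ on the gene's strand with matches in capitals. They lie at chr10:31318167-31318416 (plus strand), chr10:31318966-31319215 (plus strand) and chr2:144520120-144520369 (minus strand). Upstream and downstream name the order of these 2 ZEB1 windows alone, and other ZEB1 starts lie further downstream.
ZEB1, upstream start: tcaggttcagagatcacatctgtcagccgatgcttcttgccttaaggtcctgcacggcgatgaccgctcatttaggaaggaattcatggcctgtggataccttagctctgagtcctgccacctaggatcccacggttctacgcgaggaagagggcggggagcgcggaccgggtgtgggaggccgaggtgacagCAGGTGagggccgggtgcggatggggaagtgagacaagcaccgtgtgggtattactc
ZEB1, downstream start: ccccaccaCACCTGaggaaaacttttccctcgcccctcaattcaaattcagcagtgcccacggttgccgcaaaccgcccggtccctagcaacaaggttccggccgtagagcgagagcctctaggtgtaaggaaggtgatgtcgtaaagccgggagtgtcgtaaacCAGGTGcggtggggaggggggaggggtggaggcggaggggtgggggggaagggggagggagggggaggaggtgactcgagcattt
ZEB2: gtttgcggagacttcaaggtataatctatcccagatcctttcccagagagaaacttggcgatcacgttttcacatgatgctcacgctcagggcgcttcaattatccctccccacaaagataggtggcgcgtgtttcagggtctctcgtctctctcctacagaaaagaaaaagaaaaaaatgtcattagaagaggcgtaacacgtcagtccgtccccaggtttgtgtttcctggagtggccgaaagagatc
A match describes these letters only and is no measured site.

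ZEB1 and ZEB2 messages are also known targets of the miR-200 family of microRNAs, which were not measured here. The family has 2 seeds (bases 2 to 8, in capitals), one shared by miR-200b, miR-200c and miR-429 and the other by miR-200a and miR-141. The RefSeq sequence of 1 member of each shows them.
hsa-miR-200c-3p: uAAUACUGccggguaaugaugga
hsa-miR-141-3p: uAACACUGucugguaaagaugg
The letters complementary to the seeds, CAGTATT and CAGTGTT, occurred 6 and 3 times in the longest GENCODE 3′ untranslated region of ZEB1 (2552 bases) and 5 and 4 times in that of ZEB2 (5373 bases). Of 19552 genes 6, ZEB1 and ZEB2 among them, held 9 or more in all, with no allowance for the length of the region. SNAI2 held 1 match and the other 6 members 0. A site of each kind is shown for both genes on the transcript strand (GRCh38), matches in capitals.
ZEB1, chr10:31527625-31527647: tatcttatCAGTATTatcactct
ZEB1, chr10:31528038-31528060: atcagaatCAGTGTTtgtgattg
ZEB2, chr2:144389045-144389067: ccatacatCAGTATTtttattat
ZEB2, chr2:144389229-144389251: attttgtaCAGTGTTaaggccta

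ZEB1 moved in opposite directions in the 2 lines that express it. 94T778 libraries stood at 74.6 and 69.7 with torkinib, against 47.2 and 44.2 untreated, a rise (log2 fold change 0.66, SE 0.118, edgeR adjusted p = 1.77e-05). A375 libraries stood at 56.8 and 66.8 with torkinib, against 78.2 and 84.0 untreated, a fall (-0.40, SE 0.113, adjusted p = 0.00395). The groups overlapped in neither line, as for 70.8% of all tested genes in 94T778 and 69.1% in A375. Without untreated replicate 1 the A375 change was -0.45. The A375 call was lost without torkinib replicate 1 (adjusted p = 0.131). SKMEL28 had 4 counts with torkinib and 1 untreated.

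ZEB2 rose with torkinib, by little, in the 3 lines that express it. A375 libraries stood at 36.6 and 45.5 with torkinib, against 29.4 and 32.5 untreated (log2 fold change 0.39, SE 0.116, edgeR adjusted p = 0.00642). 94T778 libraries stood at 61.7 and 58.8 with torkinib, against 53.8 and 47.6 untreated (0.25, SE 0.102, adjusted p = 0.0428). SKMEL28 libraries stood at 259 and 260.4 with torkinib, against 225 and 227 untreated (0.20, SE 0.0787, adjusted p = 0.0371). No groups overlapped, as for 69.1% of all tested genes in A375, 70.8% in 94T778 and 69.2% in SKMEL28. The calls were near the threshold. DESeq2 gave adjusted p = 0.133 in 94T778 and 0.133 in SKMEL28, and the SKMEL28 call was lost with any 1 of its 4 libraries left out (0.123 without untreated replicate 2). The 94T778 change was 0.16 without untreated replicate 2 (adjusted p = 0.333). The A375 change was 0.32 without untreated replicate 1 (adjusted p = 0.0719) and 0.24 without torkinib replicate 2 (0.174). SKBR3 had 0 counts with torkinib and 4 untreated (adjusted p = 0.0486), a call lost without untreated replicate 2 (adjusted p = 0.226) or with DESeq2 (0.0844).

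TWIST1, a basic helix-loop-helix factor of mesoderm and neural crest, had 0 counts in all 8 breast libraries. Untreated libraries held 15.9 and 12.8 normalised CPM in 94T778, 10.6 and 9.07 in A375 and 7.43 and 7.65 in SKMEL28. 94T778 was above A375 by 0.55 on the log2 scale (SE 0.186, edgeR adjusted p = 0.0101), and A375 minus SKMEL28 was 0.37 (SE 0.207, adjusted p = 0.112). Scaling by library totals exchanged these calls (adjusted p = 0.0895 and 0.0130). With torkinib TWIST1 rose in 94T778, where libraries stood at 30.1 and 26.1 with torkinib, against 15.9 and 12.8 untreated (0.97, SE 0.157, adjusted p = 4.60e-06). In A375 they stood at 10.8 and 14.8 with torkinib, against 10.6 and 9.07 untreated (0.36, SE 0.193, adjusted p = 0.141), and in SKMEL28 at 10.2 and 10.4 with torkinib, against 7.43 and 7.65 untreated (0.44, SE 0.204, adjusted p = 0.0782). Neither passed the test, and no difference of response between lines was called (adjusted p = 0.186).

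**Figure D3:**
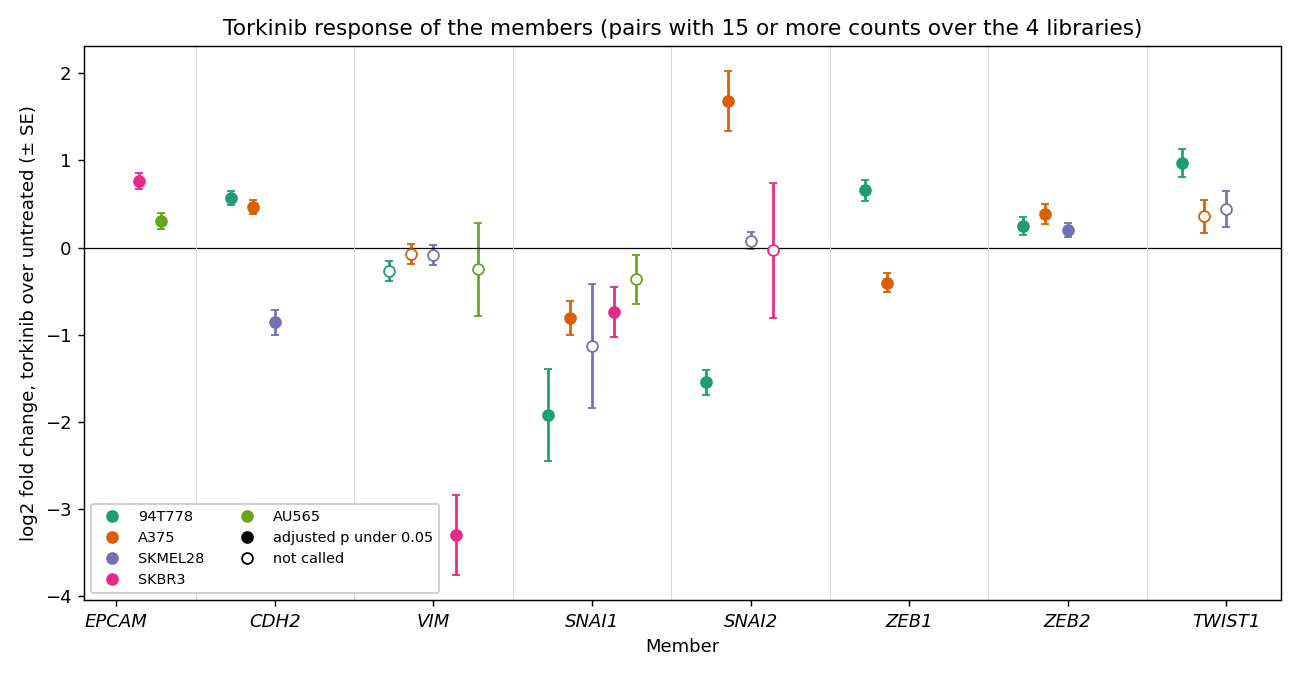
The log2 fold change of torkinib over untreated is drawn with its SE from the edgeR fit (2 libraries a group), for each member and line with 15 or more counts over the 4 libraries; filled points have an adjusted p under 0.05. SNAI1 lies below 0 wherever drawn, EPCAM above 0 in both breast lines, and CDH2, SNAI2 and ZEB1 have filled points on both sides of 0.

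By line, 94T778 had 4 members higher (CDH2, ZEB1, ZEB2, TWIST1) and 2 lower (SNAI1, SNAI2) of 8 tested, where 47.5% of all tested genes were called. A375 had 3 higher (CDH2, SNAI2, ZEB2) and 2 lower (SNAI1, ZEB1), where 42.8% were called. SKMEL28 had 1 higher (ZEB2) and 1 lower (CDH2), where 44% were called. SKBR3 had 1 higher (EPCAM) and 3 lower (VIM, SNAI1, ZEB2), where 51.3% were called. AU565 had 1 higher (EPCAM) and 0 lower, where 55.6% were called. Members with few or no counts in a line remain among the 8. CDH2, SNAI2, ZEB2 and TWIST1 had at most 1 count in either AU565 group, and CDH2, ZEB1 and TWIST1 had 0 in SKBR3. With DESeq2 the SNAI1 and ZEB2 calls in SKBR3 and the ZEB2 calls in 94T778 and SKMEL28 were lost. The response differed between lines for 5 of 8 members (EPCAM, CDH2, VIM, SNAI2, ZEB1), where 68.4% of all tested genes did. With 8 members these counts do not set the group apart from all genes.

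Most mesenchymal matrix and surface genes fell in 94T778 and A375, and fewer fell in the other lines. Of 22 tested, 3 rose and 16 fell in 94T778, 0 rose and 17 fell in A375 and 4 rose and 10 fell in SKMEL28. In the breast lines 3 rose and 6 fell in SKBR3 and 5 rose and 6 fell in AU565. Lower calls made up 23.8, 24.3, 23.7, 26.7 and 28.6% of all tested genes in the order 94T778, A375, SKMEL28 and then SKBR3 and AU565. Higher calls made up 23.8, 18.5, 20.4, 24.6 and 26.9%. In the same order the list's median log2 change was -1.06, -1.57, -0.92, -0.37 and -0.63, and that of all genes lay between -0.03 and 0.03. These medians rest on 22, 21, 19, 18 and 20 genes.

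Fibroblast markers, 4 of 6 of which are also in that list, moved with it. Their summed CPM was 4.93 to 5.71 with torkinib and 58.7 to 65.8 untreated in 94T778, 2.65 to 3.71 with torkinib and 13.9 to 15.4 untreated in A375 and 11.2 to 11.6 with torkinib and 41.8 to 42.5 untreated in SKMEL28. It was 5.76 to 5.96 with torkinib and 11.8 to 14.2 untreated in SKBR3 and 3.0 to 3.37 with torkinib and 6.78 to 7.39 untreated in AU565. Of the 3 tested (LUM, PDGFRA and COL1A1), 3 fell in 94T778, 3 in A375 and 1 in each of the other lines. Their part in the list's change, and that of the 94T778 transcripts in A375 untreated replicate 1, was not tested. Without that library, SKBR3 untreated replicate 2 and SKMEL28 untreated replicate 2, 2 matrix and surface genes rose and 15 fell in A375, 4 rose and 11 fell in SKMEL28 and 5 rose and 6 fell in SKBR3.

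TNC, a matrix glycoprotein, averaged 310.1 ± 11.8 with torkinib and 2701 ± 1.51 untreated in SKMEL28 in normalised CPM (SD, n = 2 each; log2 fold change -3.12, edgeR adjusted p = 1.52e-25). AXL, a receptor kinase, averaged 139 ± 12.7 with torkinib and 414 ± 10.2 untreated in A375 (-1.57, adjusted p = 3.53e-18). SPARC, a matrix protein, fell in 94T778 (-1.12), A375 (-1.22) and SKMEL28 (-1.01).

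COL5A1, a fibrillar collagen chain, changed in all 5 lines and in both directions. It averaged 86.7 ± 4.11 with torkinib and 525 ± 17.7 untreated in 94T778 (log2 fold change -2.60, edgeR adjusted p = 8.23e-24). It fell in 94T778 and A375 (-1.70) and rose in SKMEL28 (1.30), SKBR3 (1.48) and AU565 (3.29).

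Among 16 genes of TGF-beta signalling, a known inducer of the transition, 8 rose and 3 fell in 94T778, 2 rose and 5 fell in A375, 2 rose and 8 fell in SKMEL28, 7 rose and 3 fell in SKBR3 and 9 rose and 2 fell in AU565. Higher calls made up 23.8, 18.5, 20.4, 24.6 and 26.9% of all tested genes in that order. Lower calls made up 23.8, 24.3, 23.7, 26.7 and 28.6%. The list holds both mediators and antagonists (SMAD6, SMAD7, SKI, SKIL and TGIF1), so its counts and medians give no direction of signalling. The list's median log2 change, over genes with enough counts, ran from -0.27 in SKMEL28 (16 genes) to 0.53 in AU565 (15 genes). The ligand gene TGFB2 averaged 207 ± 1.70 with torkinib and 32.9 ± 3.77 untreated in AU565 (2.65, edgeR adjusted p = 5.42e-22) and rose in SKBR3 (3.29). It fell in A375 (-1.63). TGFB3, another ligand gene, averaged 28.9 ± 2.16 with torkinib and 201 ± 10.4 untreated in SKBR3 (-2.79, adjusted p = 2.70e-23) and fell in AU565 (-1.20). SMAD3, a mediator of the pathway, rose in 94T778 (1.11), SKBR3 (2.10) and AU565 (0.86) and fell in A375 (-0.52) and SKMEL28 (-0.42).

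Of 24 epithelial junction genes, 3 rose and 7 fell in 94T778, 1 rose and 7 fell in A375, 2 rose and 3 fell in SKMEL28, 10 rose and 5 fell in SKBR3 and 8 rose and 6 fell in AU565. Higher calls made up 23.8, 18.5, 20.4, 24.6 and 26.9% of all tested genes in that order. Lower calls made up 23.8, 24.3, 23.7, 26.7 and 28.6%. The list's medians ran from -0.47 in A375 (18 genes) to 0.28 in SKMEL28 (14 genes). DSG2, a desmosomal cadherin, averaged 260.4 ± 8.04 with torkinib and 69.7 ± 22.8 untreated in SKBR3 (1.89, edgeR adjusted p = 3.29e-17) and rose in AU565 (0.95). It fell in 94T778 (-0.52) and A375 (-0.38). PPL, a desmosomal plaque protein, rose in SKBR3 (1.28) and AU565 (0.62). LLGL2 of the same list fell in SKBR3 (-0.66) and AU565 (-0.53) and rose in SKMEL28 (0.83).

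Of 16 regulators of epithelial identity, 0 rose and 1 fell in 94T778, 1 rose and 4 fell in A375, 1 rose and 2 fell in SKMEL28, 6 rose and 6 fell in SKBR3 and 7 rose and 4 fell in AU565. Over all tested genes, higher calls made up 23.8, 18.5, 20.4, 24.6 and 26.9% in the same order of lines. Lower calls made up 23.8, 24.3, 23.7, 26.7 and 28.6%. These shares serve for the keratins below too. The regulators' medians ran from -0.86 in A375 (9 genes) to -0.02 in AU565 (16 genes). ELF3, an epithelial ETS factor, averaged 944 ± 4.72 with torkinib and 362 ± 11.7 untreated in AU565 (1.38, edgeR adjusted p = 4.10e-17) and rose in SKBR3 (1.07). In A375 it was called lower (edgeR adjusted p = 0.0125). ST14, the membrane protease matriptase, fell in SKBR3 (-0.57) and AU565 (-0.89). Of 7 tested keratins, 0 rose and 3 fell in 94T778, 1 rose and 4 fell in A375, 3 rose and 1 fell in SKMEL28, 1 rose and 5 fell in SKBR3 and 1 rose and 4 fell in AU565, with medians from -0.84 in A375 (7 genes) to 0.80 in SKMEL28 (7 genes). KRT8, a filament protein of simple epithelia, fell in SKBR3 (-0.80) and AU565 (-1.06) and rose in A375 (0.57) and SKMEL28 (1.71). KRT80 rose in SKBR3 (1.10) and AU565 (1.06) and fell in 94T778 (-0.86) and A375 (-3.02). KRT8 has many processed copies, so its counts are uncertain.

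Of 11 other cadherins, 2 rose and 4 fell in 94T778, 0 rose and 5 fell in A375, 1 rose and 1 fell in SKMEL28, 1 rose and 1 fell in SKBR3 and 1 rose and 1 fell in AU565, with medians from -1.42 in AU565 (4 genes) to -0.25 in SKMEL28 (6 genes). Over all tested genes, higher calls made up 23.8, 18.5, 20.4, 24.6 and 26.9% in the same order of lines. Lower calls made up 23.8, 24.3, 23.7, 26.7 and 28.6%. The summed CPM of the 13 other cadherins measured was 90.7 and 91 with torkinib, against 57.8 and 50.9 untreated in AU565. CDH5, the cadherin of endothelium, averaged 166 ± 4.54 with torkinib and 19.0 ± 3.78 untreated in SKBR3 (3.10, edgeR adjusted p = 2.67e-21) and rose in AU565 (1.58). The 4 endothelial genes, CDH5 among them, summed to 148 to 157 CPM with torkinib and 16.7 to 21.0 untreated in SKBR3, with KDR and TEK at 0 counts in both untreated libraries. CDH11, a mesenchymal cadherin, fell in 94T778 (-0.94). In A375 CDH11 had 1 count with torkinib and 29 untreated, a change of -4.11. Without A375 untreated replicate 1, SKBR3 untreated replicate 2 and SKMEL28 untreated replicate 2 it was -3.35. The part of the 94T778 transcripts in the untreated A375 libraries was not tested. CDH13, which lacks a cytoplasmic domain, rose in 94T778 (1.04) and fell in A375 (-0.81) and SKMEL28 (-1.65). Of 6 tested catenins, which tie cadherins to the cytoskeleton, 2 rose and 3 fell in 94T778, 2 rose and 2 fell in A375, 2 rose and 2 fell in SKMEL28, 3 rose and 1 fell in SKBR3 and 1 rose and 0 fell in AU565, with medians from -0.30 in 94T778 (5 genes) to 0.33 in SKBR3 (5 genes). The shares of all tested genes given above for the other cadherins serve for the catenins too. CTNND1, or p120 catenin, rose in SKBR3 (0.91), AU565 (0.39) and A375 (0.23) and fell in SKMEL28 (-0.45) and 94T778 (-0.35).

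Of 14 other transcription factors of the transition, 5 rose and 3 fell in 94T778, 0 rose and 6 fell in A375, 1 rose and 6 fell in SKMEL28, 5 rose and 1 fell in SKBR3 and 1 rose and 3 fell in AU565, with medians from -0.66 in A375 (13 genes) to 0.62 in SKBR3 (8 genes). Over all tested genes, higher calls made up 23.8, 18.5, 20.4, 24.6 and 26.9% in the same order of lines. Lower calls made up 23.8, 24.3, 23.7, 26.7 and 28.6%. These shares serve for the cytoskeletal genes below too. PRRX1, a homeobox factor, averaged 98.5 ± 1.66 with torkinib and 196 ± 5.80 untreated in A375 (-1.0, edgeR adjusted p = 2.29e-11). KLF8 averaged 71.6 ± 1.82 with torkinib and 21.5 ± 1.01 untreated in SKBR3 (1.74, adjusted p = 2.69e-14) and rose in AU565 (1.33). Of 10 genes of the mesenchymal cytoskeleton, 4 rose and 3 fell in 94T778, 4 rose and 4 fell in A375, 1 rose and 6 fell in SKMEL28, 5 rose and 2 fell in SKBR3 and 5 rose and 2 fell in AU565, with medians from -0.92 in SKMEL28 (10 genes) to 0.67 in SKBR3 (10 genes). S100A4, a calcium-binding protein, averaged 18.2 ± 1.19 with torkinib and 641 ± 15.4 untreated in SKBR3 (-5.14, adjusted p = 4.29e-30) and fell in AU565 (-3.76) and A375 (-2.49). TPM1, a tropomyosin, fell in 94T778 (-1.43), A375 (-1.14) and SKMEL28 (-1.31) and rose in SKBR3 (0.69) and AU565 (0.29).

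Of 11 corepressors of SNAI and ZEB factors, 2 rose and 6 fell in 94T778, 1 rose and 8 fell in A375, 1 rose and 5 fell in SKMEL28, 5 rose and 4 fell in SKBR3 and 2 rose and 8 fell in AU565, with medians from -0.35 in AU565 (11 genes) to 0.16 in SKBR3 (11 genes). Over all tested genes, higher calls made up 23.8, 18.5, 20.4, 24.6 and 26.9% in the same order of lines. Lower calls made up 23.8, 24.3, 23.7, 26.7 and 28.6%. EZH2, the catalytic subunit of a Polycomb complex, fell in all 5 lines (log2 fold changes -1.87 for SKMEL28, -1.81 for AU565, -1.80 for 94T778, -1.61 for A375 and -1.07 for SKBR3). It averaged 11.5 ± 0.155 with torkinib and 40.0 ± 5.54 untreated in 94T778 (edgeR adjusted p = 3.08e-12). KDM1A, a histone demethylase, fell in 94T778 (-0.75), A375 (-0.49), SKBR3 (-0.62) and AU565 (-0.79), and its change in SKMEL28 did not pass the test (-0.12, adjusted p = 0.182).

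Without A375 untreated replicate 1, SKBR3 untreated replicate 2 and SKMEL28 untreated replicate 2, most of these list counts in A375, SKMEL28 and SKBR3 stayed within 1.5 times. The exceptions beside the matrix list were in A375, where 5 corepressors and 1 catenin fell and 0 epithelial regulators and 0 keratins rose. In SKBR3 4 cytoskeletal genes and 0 catenins fell, and in SKMEL28 1 TGF-beta gene rose. The genes named as risen or fallen in these 3 lines kept their directions. All kept their calls but KRT8 in A375 (0.33) and SKMEL28 (1.00) and TGFB2 in A375 (-0.92). In SKBR3, whose untreated libraries differed most, the changes were 2.28 for DSG2, -5.16 for S100A4, 1.68 for KLF8 and -2.73 for TGFB3.

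**Figure D4:**
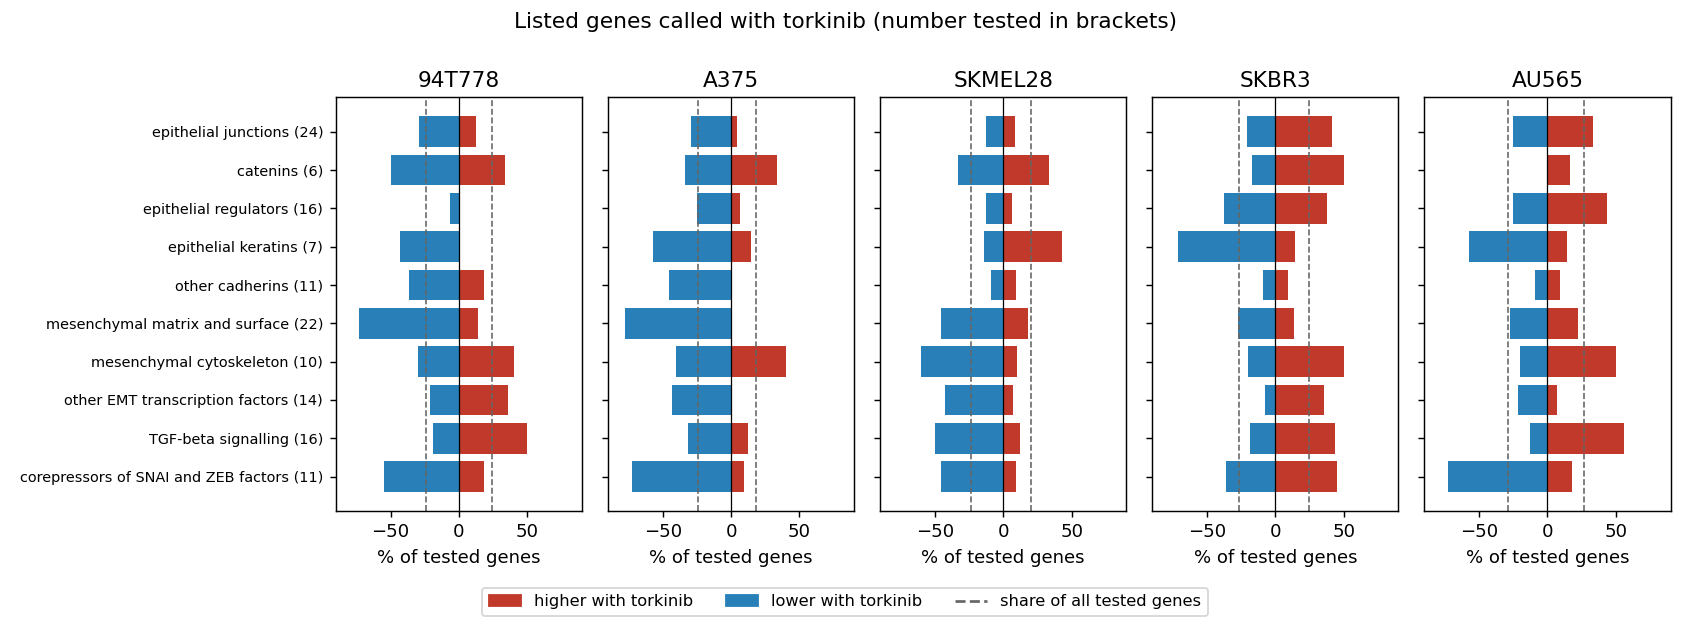
For each gene list and line, bars give the percentage of tested list genes called higher or lower with torkinib, and dashed lines the share of all tested genes called in that direction. Mesenchymal matrix and surface genes reach past the dashed line on the lower side in 94T778, A375 and SKMEL28, and barely in SKBR3. TGF-beta genes, antagonists of the pathway among them, do so on the higher side in 94T778, SKBR3 and AU565 and on the lower side in A375 and SKMEL28. Corepressors do so on the lower side in all 5 lines.

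The genes whose level followed each member most closely, by Pearson's r of log2 CPM over the 10 group means among 13976 genes, were OVOL2 for EPCAM (0.998), TLR6 for CDH2 (0.995), ZNF430 for VIM (0.996) and PRPF19 for SNAI1 (0.960). They were VAMP3 for SNAI2 (0.977), CACNA2D1 for ZEB1 (0.995), CNRIP1 for ZEB2 (0.996) and EVC for TWIST1 (0.997). The 10 means come from 5 lines with 2 groups each, so these values describe mainly which lines express a gene.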

How the data were processed

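Total RNA from 20 libraries was sequenced, and the authors deposited counts of reads per gene symbol, 1 file per library. The submitters' processing notes name HISAT2 2.04, HTSeq 0.6.1, limma 3.34.9 and build hg19; which annotation was counted, and on which strand, is not given in the sources used here. Summary lines that name no gene, 37.6 to 52.2% of a library, were left out, and 0 other columns of per-sample values were present. Groups came from the labels.

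Differences were fitted to the counts by edgeR 4.0.16 under R 4.3.3 (TMM, filterByExpr, 10 group means, quasi-likelihood test, Benjamini-Hochberg adjustment over 16698 genes, threshold 0.05). All 20 libraries entered 1 fit. The SE is the absolute log2 fold change over the square root of F. Levels are CPM with TMM factors, and bounds, percentages of another line and marker sums are CPM of library totals. Floors cover counting error only. An exact test of 2 against 2 libraries cannot go below p = 0.333. The scripts were tested on simulated data. Alternatives used limma 3.58.1 and DESeq2 1.42.0.

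The members and gene lists were chosen with earlier results of these data known. The text names all 9 members and genes from each list, out of the 3 with the smallest p for any response and the 3 with the smallest p among untreated lines. List medians use genes with more than 3 counts in a group, with groups at 0 set to their bound. Sequences are from RefSeq and GENCODE 29 on GRCh38, and no coordinate was carried over from hg19.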

Additional observations from a re-analysis of the deposited data

Results flagged for a closer look

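The torkinib response differed across the 5 lines for 5 members by edgeR's test of any difference among the 5 responses, which are also at 3 doses. For CDH2 the adjusted p was 1.22e-07, with a log2 fold change of 0.57 in 94T778, 0.46 in A375 and -0.86 in SKMEL28. For SNAI2 it was 4.88e-10, with -1.55 in 94T778, 1.68 in A375 and 0.08 in SKMEL28. For ZEB1 it was 2.94e-05, with 0.66 in 94T778 and -0.40 in A375. For VIM it was 1.14e-05, and 0.00373 without A375 untreated replicate 1 and SKBR3 untreated replicate 2. For EPCAM it was 0.0158, and 0.657 with limma-voom.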

How the results depend on the processing

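The main choices were changed one at a time: size factors as in DESeq2 or library totals in place of TMM, no filter on low counts, limma-voom, DESeq2, a fit on a line's own libraries, the replicate number as a block, and each library left out. Leaving out A375 untreated replicate 1 and SKBR3 untreated replicate 2 together, library totals, and the gene lists without these 2 and SKMEL28 untreated replicate 2, were added after seeing the data. Of 115 values for single members, these settings apart from single left-out libraries gave 714 outcomes with direction and call kept, 21 calls lost, 13 gained and 6 directions turned. Members called higher in SKMEL28 were 1, but 0 with library totals, no filter or DESeq2, and 2 with its own libraries only. In SKBR3, members called higher went to 2 and those called lower to 1, against 1 and 3, without the 2 libraries, and 1 was called lower with DESeq2. With 1 library left out, members called higher ranged over 0 to 1 in AU565, 1 to 2 in SKBR3 and 0 to 1 in SKMEL28, and members called lower over 1 to 3 in 94T778, 1 to 2 in A375 and 1 to 3 in SKBR3. Directions turned only for members with few counts or no call. The EPCAM response in 94T778 was 0.045 with limma-voom. The untreated EPCAM difference 94T778 minus SKMEL28 was -0.022 with limma-voom. The SNAI2 response in SKBR3 was 1.16 with limma-voom and 5.48 without the 2 libraries, against a group at 0 counts. The ZEB1 response in AU565 was -0.0060 with no filter. The SNAI2 difference SKBR3 minus AU565 had an adjusted p of 1 without the 2 libraries. With 1 library left out, the range was -1.69 to 3.89 for the EPCAM response in 94T778, -3.51 to 2.08 for untreated EPCAM in 94T778 minus A375 and -3.73 to 1.86 in 94T778 minus SKMEL28. It was -0.88 to 5.48 for the SNAI2 response in SKBR3, -0.75 to 0.21 for VIM in AU565, -3.84 to 3.85 for ZEB1 in AU565 and -3.81 to 2.32 for untreated ZEB1 in SKMEL28 minus AU565. The adjusted p of SKBR3 minus AU565 then ran from 6.22e-05 to 1 for SNAI2 and from 0.0460 to 1 for ZEB1. The replicate block left every count of members called higher as it was; members called lower in 94T778 became 3 (VIM, adjusted p = 0.00163) and members with a differing response 6 (ZEB2, adjusted p = 0.0456). Same-numbered libraries did not deviate together (correlations from -0.055 to 0.068), so the numbers were not taken as pairs. The median log2 difference of all genes was 0.300 with library totals, against 0.0923 with TMM, in untreated A375 minus SKMEL28. It was 0.415 against 0.133 in A375 minus SKBR3 and -0.225 against -0.0323 in 94T778 minus A375. The causes of these changes were not tested. With at most 3 counts in any group, differences of CDH1 were not detectable at this depth.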
